A study of Mus musculus with 5 samples.

Results

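Accessible chromatin around Alx1, Alx4, Pax1 and Pax9 was compared between mutant and control mouse embryos, 1 embryo per library, in the anterior part of the forelimb bud. The assay was ATAC-seq, where a transposase inserts sequencing adapters wherever DNA is exposed, and a peak is a stretch with more inserted fragments than background. The 4 genes, of 21627 protein-coding genes, were chosen by name, and their regions by position: every peak of the 5 libraries was joined with those it shared at least 1 bp with, and a region counted when it lay in or within 100 kb of the mm10 body of a gene. This gave 61 of 86713 regions, of which 6 lay at Alx1, 30 at Alx4, 8 at Pax1 and 17 at Pax9. There were 3 mutant embryos (PrxCre/+;Smarcc1c/c) and 2 control embryos (Prx+/+;Smarcc1c/c), all at E11.5 with 40 to 48 somites, and each library used 50K cells of 1 forelimb pair. Both groups carry the conditional Smarcc1 allele on both chromosomes, and only the mutants carry Prx-Cre, which acts in limb mesenchyme and leaves ectoderm, vessels, nerves and muscle precursors of the bud untouched. BAF155, the product of Smarcc1, is a scaffold subunit of BAF, a complex that moves nucleosomes, and the study addresses its role in the repression that GLI transcription factors exert on Hedgehog targets.

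ALX1 and ALX4 are paired-type homeodomain transcription factors. In the mouse, loss of Alx4 causes extra anterior digits with ectopic Hedgehog signalling at the anterior margin, and Alx1 is required in the mesenchyme of the head. PAX1 and PAX9 are paired-domain factors without a homeodomain, and both act in the sclerotome that forms the vertebrae. Pax1 is also needed for the shoulder girdle, and loss of Pax9 duplicates an anterior digit and removes the teeth. In the limb bud these genes are active in the anterior and proximal mesenchyme, where the GLI3 repressor prevails.

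Promoter sequence was at hand for Pax1 and Pax9 (RefSeq, GRCm38.p6, the coordinates of mm10, + strand), and is shown because the window of Pax9 met a peak in every library and that of Pax1 in 1. Each run gives the 250 bases before an annotated start inside the gene body, 5′ to 3′. Both genes also have an earlier annotated start at the low-coordinate end of the body, where the order was the other way, with a peak at Pax1 in every library and at Pax9 in mutants 1 and 2 and control 1. Capitals mark the matches to 5 short motifs searched on both strands, which did not overlap in these windows: the GLI site GACCACCCA, the homeodomain site TAATTA, the TALE site TGACAG, the AP-1 site TGANTCA and the paired-domain core GTCACGC.
Pax9, chr12:56695221-56695470: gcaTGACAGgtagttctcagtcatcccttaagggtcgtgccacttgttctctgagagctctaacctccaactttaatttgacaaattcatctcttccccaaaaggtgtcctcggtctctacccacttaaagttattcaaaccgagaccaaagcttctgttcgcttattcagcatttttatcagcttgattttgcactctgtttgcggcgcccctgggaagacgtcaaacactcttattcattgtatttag
Pax1, chr2:147364744-147364993: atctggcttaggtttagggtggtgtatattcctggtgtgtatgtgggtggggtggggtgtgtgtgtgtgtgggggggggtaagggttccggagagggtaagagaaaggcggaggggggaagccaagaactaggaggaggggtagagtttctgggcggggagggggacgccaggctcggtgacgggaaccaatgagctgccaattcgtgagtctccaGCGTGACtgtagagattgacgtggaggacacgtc

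In the Pax9 window the peaks covered 250, 250 and 210 of the 250 bases in mutants 1, 2 and 3, and 250 and 168 bases in controls 1 and 2. In the Pax1 window no mutant peak reached the 250 bases, nor did one of control 1, and a peak of control 2 covered the last 9. Of 32582 such windows over all genes, 36.9% met a peak in every library and 50.6% met none. By library the share with a peak was 41.9%, 43.5% and 38.4% in mutants 1, 2 and 3, and 46.9% and 45.9% in controls 1 and 2. The Pax9 window held the TALE site 247 bases before the start and none of the other motifs, and 15.6% of 32407 distinct windows hold that site. The Pax1 window held the paired-domain core, as GCGTGAC, 34 bases before the start, as do 1.80% of windows. No match to the GLI site, present in 0.219% of windows, lay in either. These matches describe letters and say nothing of binding.

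Fewer regions around 3 of the 4 genes held a peak in each mutant than in either control, which was also true of 48.8% of all gene windows with a region. Over the 4 genes together, mutants 1, 2 and 3 held a peak at 25, 25 and 12 of the 61 regions, and controls 1 and 2 at 53 and 35. As shares of the 61 these were 41.0%, 41.0% and 19.7% in the mutants and 86.9% and 57.4% in the controls. Over all 86713 regions the shares were 37.4%, 44.8% and 27.3% in the mutants and 75.3% and 65.0% in the controls. Mutant 3 was the poorest library both at these genes and over all regions, and control 1 the richest.

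**Figure D1:**
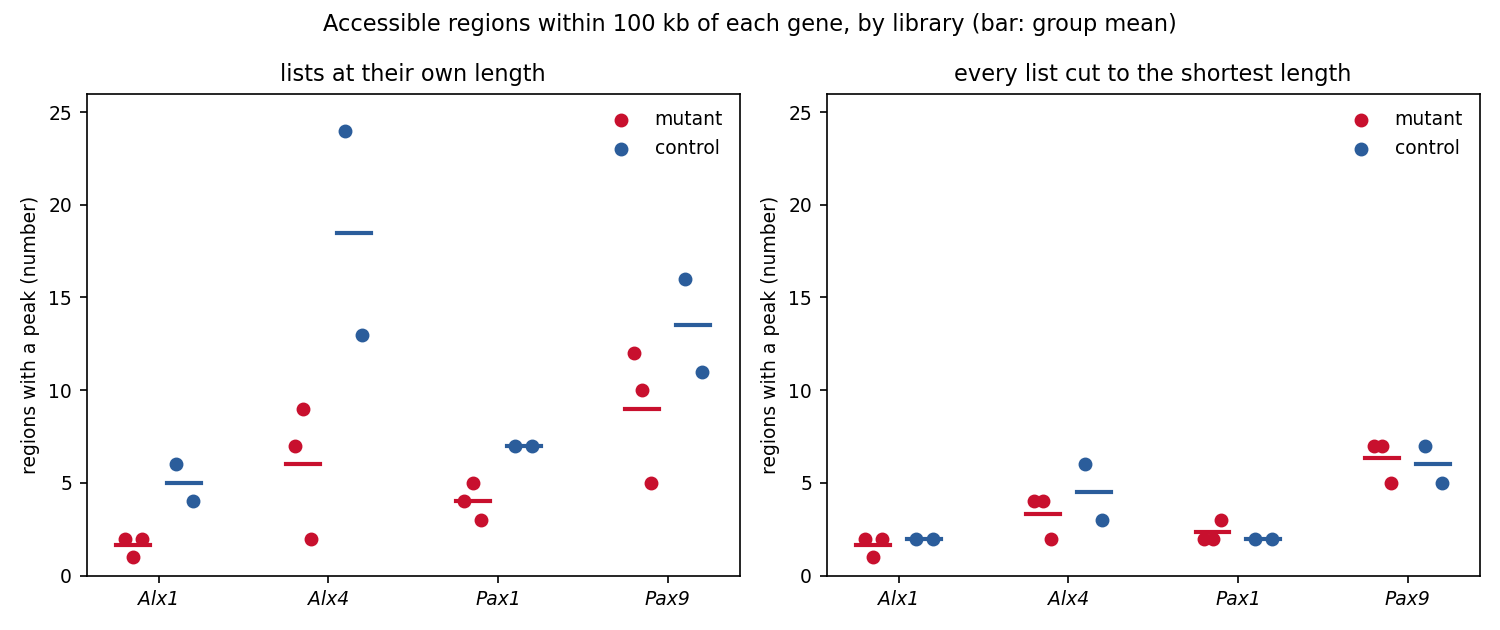
Number of regions within 100 kb of each gene (y axis) that held a peak in each library, mutants in red and controls in blue, with a bar at the group mean. With lists at their own length (left) mutants lie below controls at Alx1, Alx4 and Pax1 and overlap them at Pax9, where they held 12, 10 and 5 regions against 16 and 11; with every list cut to 27194 peaks (right) the groups meet or overlap at every gene.

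List length moved with these counts. Mutant lists held 35569 ± 7863 peaks (SD, n = 3) and control lists 64646 ± 6100 (SD, n = 2). The fold of a peak is its pileup over background in the authors' list. It is relative to the background of its own library, with no further scaling between libraries. The weakest peak had a fold of 2.47, 2.46 and 2.52 in mutants 1, 2 and 3, and of 2.43 and 2.29 in controls 1 and 2, and accessibility below that level is not seen. Background levels read from the steps of the fold values were 5.48, 5.09 and 4.95 fragments per position in the mutants, and 4.77 and 6.42 in the controls. Fragments here and below are units of the pileup, which may be whole fragments or single reads, since the peak caller's options are not given. When each list was shortened to its 27194 strongest peaks, the length of that of mutant 3, the mutants held 2, 1 and 2 regions at Alx1, and both controls 2. At Alx4 the counts were then 4, 4 and 2 in the mutants and 6 and 3 in the controls. At Pax1 they were 2, 2 and 3 in the mutants and 2 in both controls, and at Pax9 7, 7 and 5 in the mutants and 7 and 5 in the controls. The mean at Pax1 and at Pax9 was then higher in the mutants by 0.333 regions, so the direction at these genes changed with list length. In bulk tissue, fewer cells with an open region and less opening per cell cannot be told apart.

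The label of the tissue was checked on regions within 1 kb of either end of marker genes. Of 6 limb mesenchyme genes, 6, 6 and 4 had a peak in mutants 1, 2 and 3, and all 6 in both controls. Endothelial genes had 1 of 5 in each mutant and 3 and 1 in the controls, with Pecam1 and Cdh5 at 0 everywhere. Blood genes had 1 of 4 in every library, with Gata1, Hbb-bt and Ptprc at 0. Muscle precursor genes had 3, 4 and 1 of 5 in the mutants and 5 and 4 in the controls, and ectoderm genes 3, 3 and 2 of 6 in the mutants and 4 and 5 in the controls. Sclerotome genes, relevant because Pax1 and Pax9 are also active there, had 3, 4 and 3 of 4 in the mutants and 4 in both controls, and neural crest genes 3, 4 and 3 of 4 in the mutants and 4 and 3 in the controls. The part of other cell types in the results below was not tested. At Smarcc1 a gene-end region held a peak in every library, which does not check the deletion. At the ends of Prrx1, the gene whose control element drives Prx-Cre, the top fold was 22.7, 22.7 and 18.5 in mutants 1, 2 and 3, and 9.54 and 9.30 in controls 1 and 2, so every mutant lay above both controls.

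**Figure D2:**
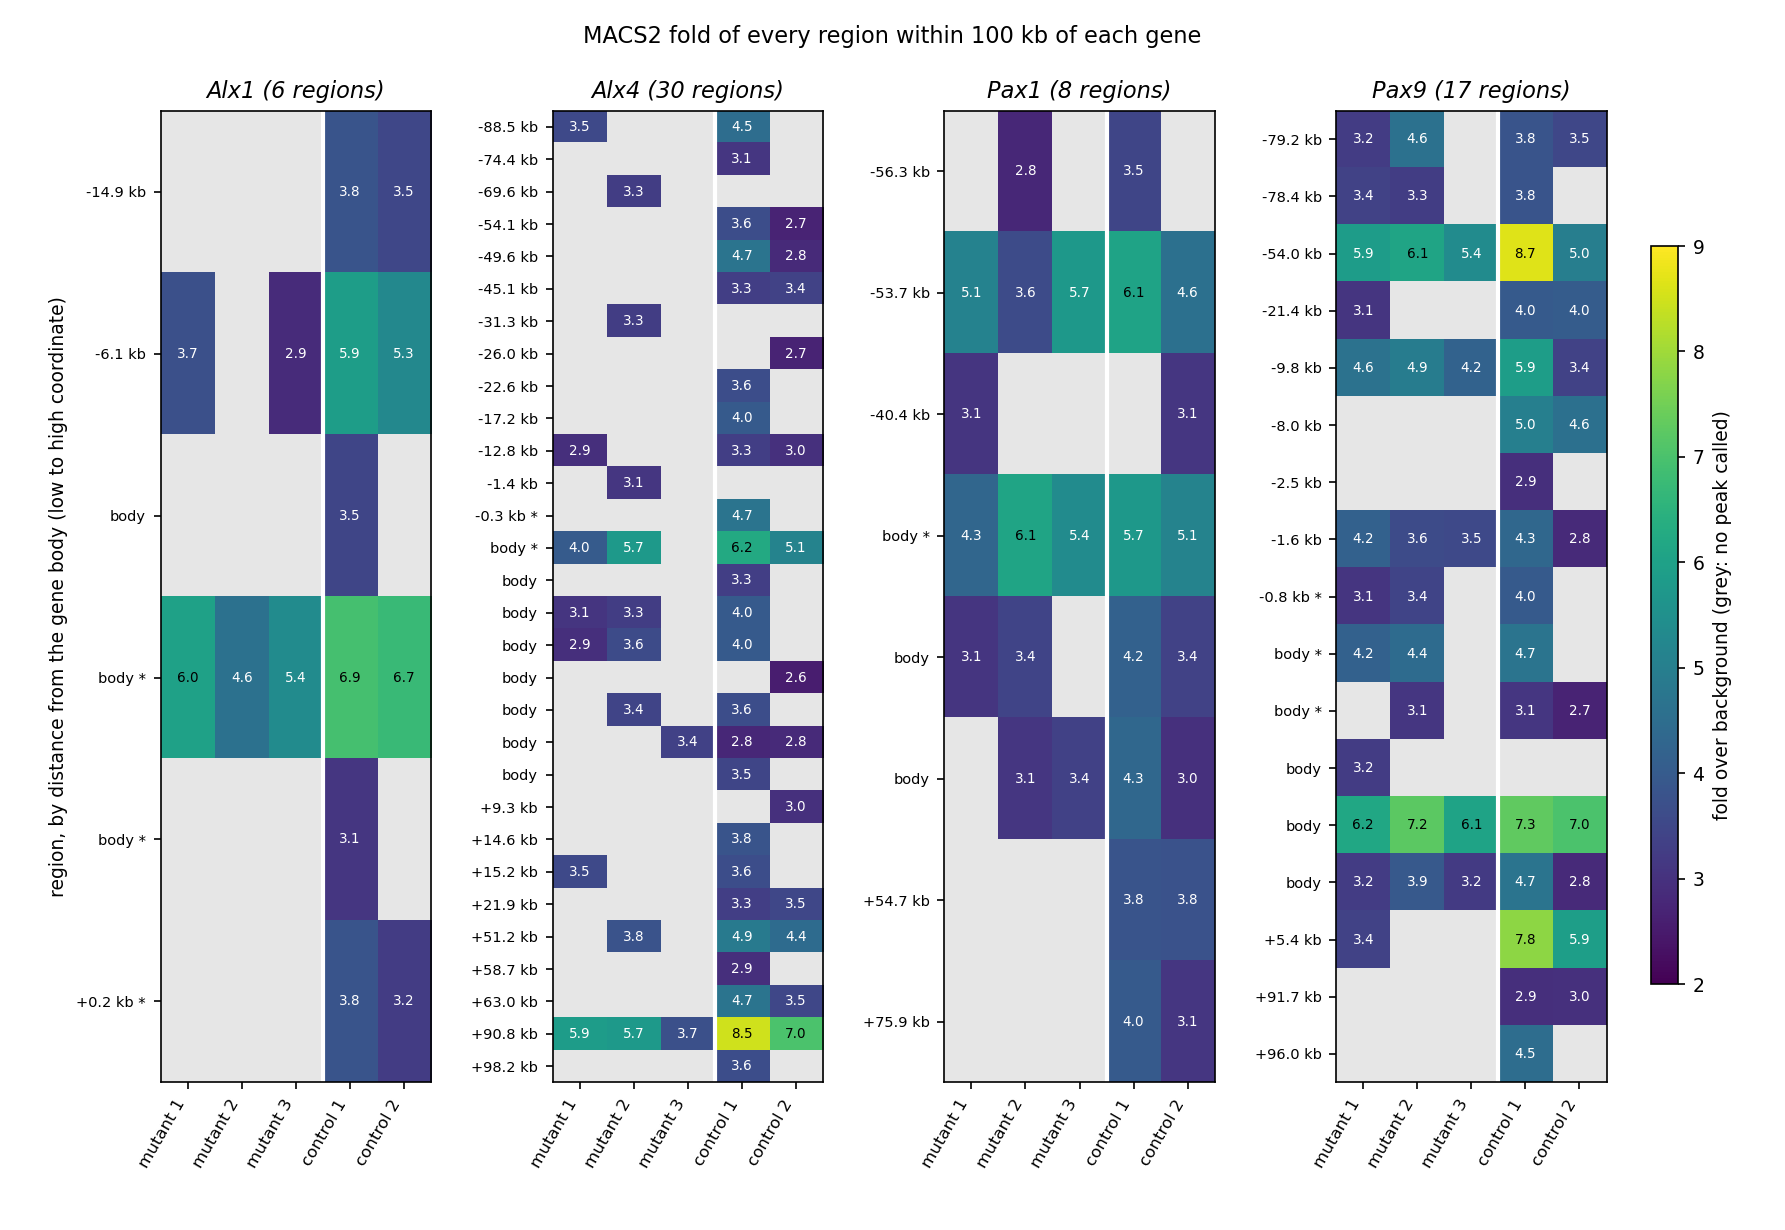
Fold over background (colour and number) of each of the 61 regions (rows, from low to high coordinate, labelled by distance from the gene body, with an asterisk within 1 kb of an end of the gene) in 3 mutant and 2 control libraries (columns); grey means no called peak. Rows filled across all 5 columns number 1 at Alx1, 1 at Alx4, 2 at Pax1 and 5 at Pax9.

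Alx1 (chr10:103007847-103029549) had the fewest regions of the 4 genes, and a single one was open in every library. Peaks were found at 2, 1 and 2 of its 6 regions in mutants 1, 2 and 3, and at 6 and 4 in controls 1 and 2. The mutant mean was 1.67 ± 0.58 (SD, n = 3) and the control mean 5.0 ± 1.41 (SD, n = 2), and the groups did not overlap (exact two-sided permutation p = 0.2, the smallest value that 3 against 2 libraries allow). The constant region, chr10:103027991-103029081, lay just inside the high-coordinate end of the gene, where the predicted gene Gm34298 also ends. Its fold was 6.02, 4.60 and 5.38 in mutants 1, 2 and 3, and 6.94 and 6.74 in controls 1 and 2, so each mutant value was lower than both control values. The pileup at its summit was 38, 27 and 31 fragments in the mutants and 39 and 49 in the controls. How many of all regions open in every library show this order of folds was not counted.

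The other strong Alx1 region, chr10:103000895-103001717, lay 6.13 kb beyond the low-coordinate end. Its fold was 3.70 in mutant 1 and 2.86 in mutant 3, with no peak called in mutant 2, against 5.90 and 5.25 in controls 1 and 2. Its peak was also narrow in the mutants, covering 264 and 263 bp in mutants 1 and 3, against 823 and 566 bp in controls 1 and 2. A region 14.9 kb beyond the same end (chr10:102992459-102992932) had no mutant peak and control folds of 3.81 and 3.50. At the high-coordinate end, chr10:103029726-103030381 had no mutant peak and control folds of 3.81 and 3.23. The remaining Alx1 regions, chr10:103026820-103027193 and chr10:103029271-103029539, were found in control 1 alone, at folds of 3.47 and 3.12. The accessible stretch at that end of Alx1 was thus 1 region in each mutant, 4 in control 1 and 2 in control 2. No region was seen between 14.9 and 100 kb on the low-coordinate side.

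Alx4 (chr2:93642434-93681341) had the most regions, most of them weak, and its counts differed most between libraries. Peaks were found at 7, 9 and 2 of its 30 regions in mutants 1, 2 and 3, and at 24 and 13 in controls 1 and 2. The means were 6.0 ± 3.6 in mutants (SD, n = 3) and 18.5 ± 7.8 in controls (SD, n = 2), a difference of -12.5 regions with no overlap of the groups (exact two-sided permutation p = 0.2). The controls themselves differed by nearly as much, and the difference was -8 without control 1 and -19 without control 2. Of the 30 regions, 10 were open in both controls, and 12 in a single control and no mutant, 9 of them in control 1 at folds of 2.95 to 4.68 and 3 in control 2 at 2.56 to 2.96.

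The region just inside the low-coordinate end of Alx4, chr2:93642496-93643838, was open in 2 of 3 mutants. Its fold was 4.01 and 5.75 in mutants 1 and 2, with no peak in mutant 3, against 6.24 and 5.12 in controls 1 and 2. Of gene-end regions of like strength in the controls, 86.0% were open in all 3 mutants and 1.68% in none. Next to it, chr2:93641512-93642155 was found in control 1 alone at a fold of 4.68. Inside the gene body near this end, 3 of 4 weak peaks of control 1 recurred in 1 or 2 mutants, and chr2:93645065-93645373, at a fold of 3.29, was found in control 1 alone. At chr2:93645778-93646203 the fold was 3.09 and 3.28 in mutants 1 and 2 and 3.99 in control 1, and at chr2:93647111-93647612 it was 2.93 and 3.61 in mutants 1 and 2 and 3.99 in control 1. At chr2:93648555-93649149 mutant 2 had a fold of 3.45 and control 1 of 3.64. None of the 4 had a peak in mutant 3 or control 2. Deeper in the gene, chr2:93658979-93659343 was open in mutant 3 (fold 3.36) and both controls (2.77 and 2.83), and it was the only region near Alx4, besides the strongest, with a peak in mutant 3.

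The strongest region in the Alx4 window lay far from the gene. At chr2:93772164-93773417, 90.8 kb beyond the high-coordinate end and within the body of Ext2, which encodes a heparan sulfate polymerase, the fold was 5.86, 5.75 and 3.70 in mutants 1, 2 and 3, and 8.50 and 7.01 in controls 1 and 2. Each mutant value lay below both control values, an order whose share over all regions was not counted. This was the single Alx4 region open in every library. Its nearest gene end was that of Ext2, so it need not belong to Alx4. Another region within Ext2, chr2:93732500-93733259, had a fold of 3.78 in mutant 2 alone among mutants, against 4.85 and 4.45 in the controls.

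Regions open in both controls and in no mutant numbered 5 of 10 at Alx4. On the low-coordinate side these were chr2:93587598-93588300 with control folds of 3.64 and 2.69, chr2:93592209-93592836 with 4.68 and 2.83, and chr2:93597116-93597350 with 3.29 and 3.37. They lay 45.1 to 54.1 kb from the gene, with no other region between them. The others lay within Ext2, at chr2:93703211-93703808 with control folds of 3.29 and 3.50 and at chr2:93744295-93745587 with 4.68 and 3.50. A further region, chr2:93629251-93629648, 12.8 kb from the gene, had a fold of 2.93 in mutant 1 and of 3.29 and 2.96 in the controls. In the other direction, mutant 2 alone held 3 regions at folds of 3.12 to 3.28, at 69.6, 31.3 and 1.40 kb on the low-coordinate side, and no control had a peak there. Across all regions, 11.8% held a peak in at least 1 mutant and in neither control. The last kinds of Alx4 region paired mutant 1 with control 1: at 88.5 kb on the low-coordinate side the fold was 3.55 in mutant 1 and 4.51 in control 1, and at 15.2 kb on the other side, near an end of Ext2, 3.55 in mutant 1 and 3.64 in control 1.

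**Figure D3:**
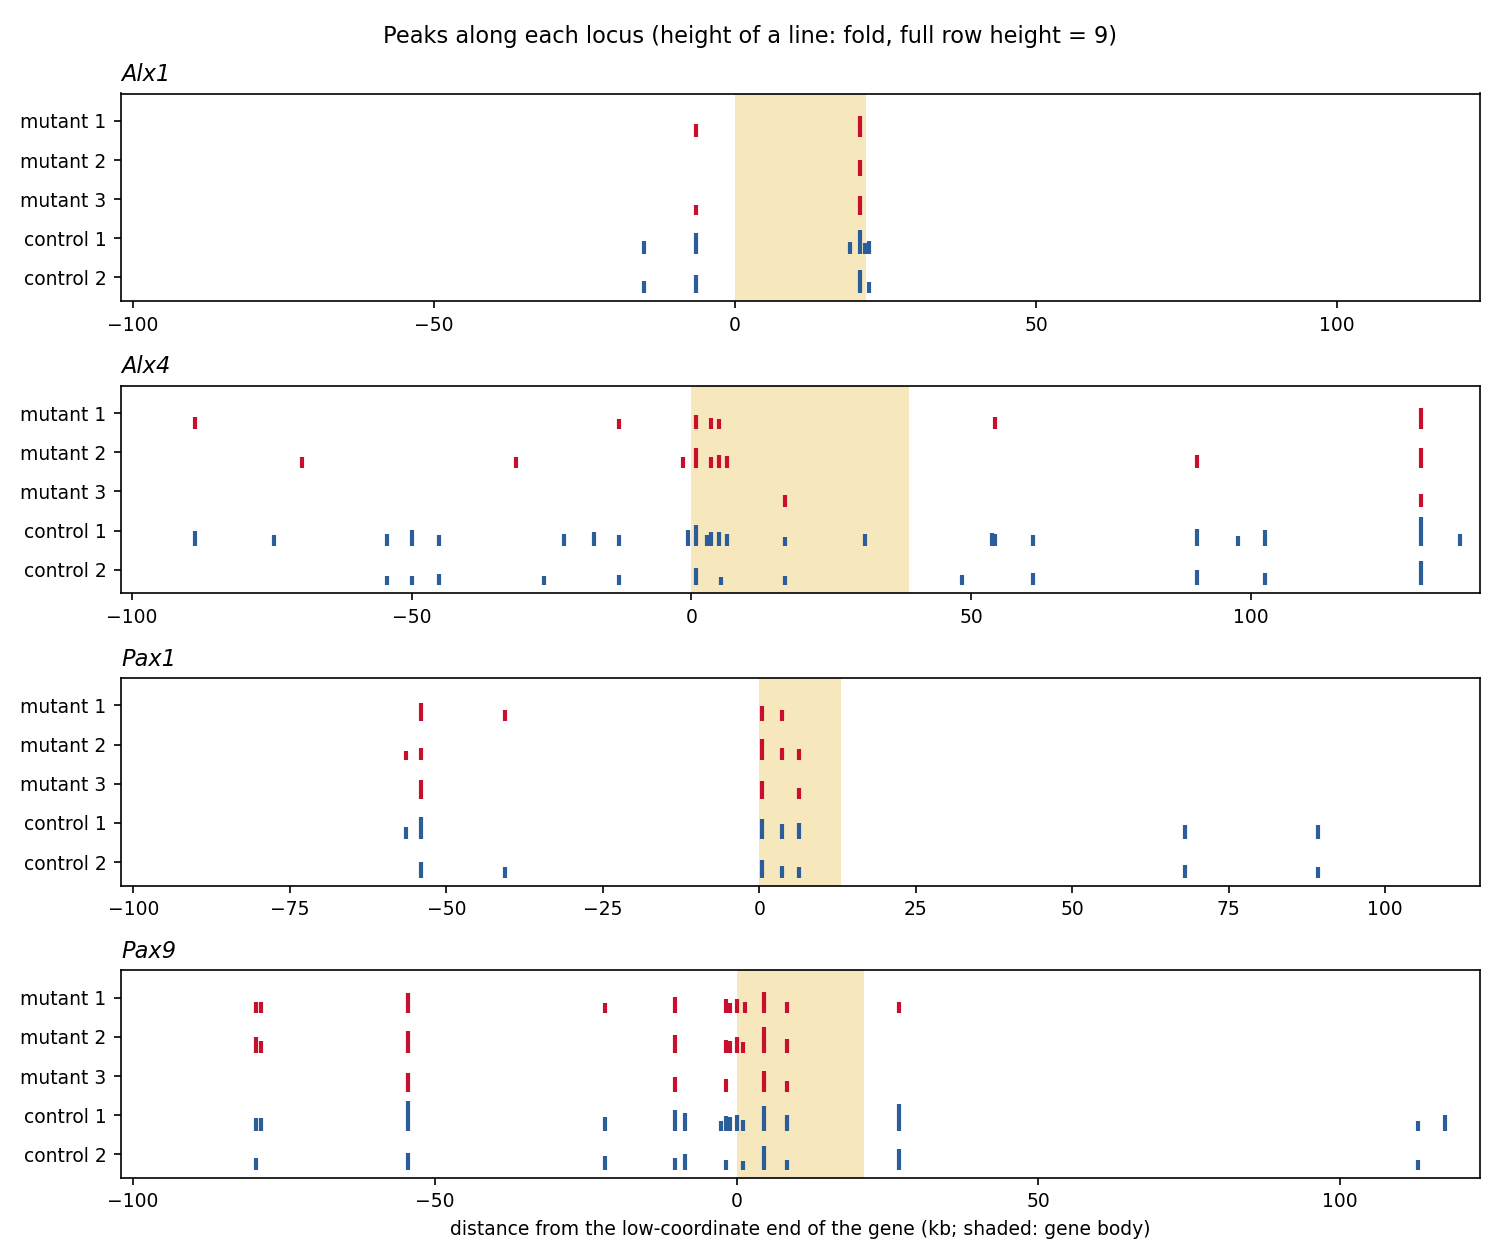
Position of each region relative to the low-coordinate end of the gene (x axis, kb; gene body shaded) in each library (rows, mutants in red and controls in blue); the height of a line is the fold, and a full row corresponds to 9. At Alx1 and Alx4 lines thin out in the mutant rows. At Pax9 most lines between 10 kb before and 10 kb after the low-coordinate end recur in the rows of mutants 1 and 2. The region 8.03 kb before that end has no line in any mutant row.

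Pax1 (chr2:147361930-147375049) has no other protein-coding gene in its window, and its body regions stayed open in most libraries while regions beyond its end did not. Peaks were found at 4, 5 and 3 of its 8 regions in mutants 1, 2 and 3, and at 7 in each control. The means were 4.0 ± 1.0 in mutants (SD, n = 3) and 7.0 in controls (n = 2), and the groups did not overlap (exact two-sided permutation p = 0.2). At the low-coordinate end, where the longest annotated form of this + strand gene starts, the fold at chr2:147361840-147362845 was 4.32, 6.08 and 5.38 in mutants 1, 2 and 3, and 5.72 and 5.12 in controls 1 and 2. Here the groups overlapped, with mutant 2 above both controls and mutant 1 below them. Pileup at the summit was 27, 36 and 31 fragments in the mutants and 32 and 37 in the controls.

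A distal Pax1 region, chr2:147307589-147308255, 53.7 kb upstream, was also open in every library. Its fold was 5.09, 3.61 and 5.72 in mutants 1, 2 and 3, and 6.07 and 4.58 in controls 1 and 2, and again the groups overlapped. Of distal regions of like strength in the controls, 45.4% were open in all 3 mutants and 23.6% in none. Within the gene, chr2:147364985-147366123 begins at the start whose promoter is printed above. Its fold was 3.09 in mutant 1 and 3.45 in mutant 2, with no peak called in mutant 3, against 4.16 and 3.37 in the controls. These folds need not be of 1 site, since the region joins separate peaks, 3 of them in control 2. The strongest summit lay 987 and 663 bp into the region in mutants 1 and 2, and 654 and 399 bp in controls 1 and 2. Of these libraries, control 2 alone reached the printed bases. At the neighbouring chr2:147367959-147368574 the fold was 3.12 in mutant 2 and 3.36 in mutant 3, with no peak in mutant 1, against 4.33 and 2.96 in controls 1 and 2.

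Downstream of Pax1 no mutant had a peak. The regions at chr2:147429718-147430329, 54.7 kb from the gene, and chr2:147450939-147451420, 75.9 kb from it, had control folds of 3.81 and 3.77 and of 3.99 and 3.10. Of distal regions of like strength in the controls, 48.1% and 60.8% were open in no mutant. On the upstream side, chr2:147305275-147305618 was found in mutant 2 (fold 2.79) and control 1 (3.47), and chr2:147321048-147321481 in mutant 1 (3.09) and control 2 (3.10). Each of these lay in 1 library of each genotype.

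Pax9 (chr12:56691693-56712824) kept the most regions, and its mutant and control counts overlapped. Peaks were found at 12, 10 and 5 of its 17 regions in mutants 1, 2 and 3, and at 16 and 11 in controls 1 and 2. The means were 9.0 ± 3.6 in mutants (SD, n = 3) and 13.5 ± 3.5 in controls (SD, n = 2), a difference of -4.5 (exact two-sided permutation p = 0.4). It was -2.33 without control 1, -2.5 without mutant 3 and -7 without control 2. Mutant 1 held more Pax9 regions than control 2.

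The widest region, chr12:56694474-56698024, covers the start printed above and was open in every library. Its fold was 6.17, 7.23 and 6.06 in mutants 1, 2 and 3, and 7.28 and 7.01 in controls 1 and 2, so mutant 2 lay between the controls and the other mutants below them. Peaks covered 2928, 2235 and 599 bp of its 3551 bp in mutants 1, 2 and 3, and 3290 and 1873 bp in controls 1 and 2. Strongest summits fell within 104 bp of each other, against a median range of 241 bp over the 19579 regions open in every library. Downstream in the gene, the fold at chr12:56699734-56700494 was 3.24, 3.94 and 3.20 in the mutants and 4.68 and 2.83 in the controls. Both count as distal here, since the RefSeq body of Pax9 begins at an earlier start.

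Upstream of Pax9, 3 further regions were open in every library. At chr12:56689653-56690127, 1.57 kb from the gene, the fold was 4.17, 3.61 and 3.53 in mutants 1, 2 and 3, and 4.33 and 2.83 in controls 1 and 2, so every mutant lay above control 2. At chr12:56681039-56681907, 9.79 kb away, it was 4.63, 4.93 and 4.21 in the mutants and 5.90 and 3.37 in the controls, with the same order. At chr12:56636708-56637725, 54.0 kb away, it was 5.86, 6.08 and 5.38 in the mutants and 8.67 and 4.99 in the controls. In all of these the mutant values lay between those of control 2 and control 1.

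Several weaker Pax9 regions were missing from mutant 3, and some of these also from control 2, the libraries with the fewest peaks of their genotype. Around the low-coordinate end, the fold at chr12:56691457-56692046 was 4.17 in mutant 1 and 4.43 in mutant 2, against 4.68 in control 1. At chr12:56690202-56690918 it was 3.09 in mutant 1 and 3.45 in mutant 2, against 3.99 in control 1. The next, chr12:56692424-56692995, had a fold of 3.12 in mutant 2 alone among mutants, and 3.12 and 2.69 in the controls. The regions chr12:56611749-56612530 and chr12:56612585-56613313 lay within Nkx2-9, a homeobox gene of the same cluster. Their folds were 3.24 and 4.60 in mutants 1 and 2 against 3.81 and 3.50 in the controls, and 3.39 and 3.28 in mutants 1 and 2 against 3.81 in control 1. The only Pax9 region without a control peak, chr12:56693050-56693254, had a fold of 3.24 in mutant 1.

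The remaining Pax9 regions had a peak in at most 1 mutant. At chr12:56718245-56719041, 5.42 kb beyond the gene and within Slc25a21, a mitochondrial carrier gene, the fold was 3.39 in mutant 1, with no peak in mutants 2 and 3, against 7.80 and 5.93 in controls 1 and 2. Its summit held 21 fragments in mutant 1 and 44 and 43 in the controls. At chr12:56682668-56683661, 8.03 kb upstream, no mutant had a peak and the control folds were 5.03 and 4.58. This region lies 0.761 kb from the constant one at 9.79 kb, so neighbouring sites differed in the same libraries. It was the strongest of the regions near the 4 genes that were open in both controls and no mutant, and the single one that remained in that class with all lists at 27194 peaks. A region 21.4 kb upstream, chr12:56669485-56670246, had a fold of 3.09 in mutant 1 and of 3.99 and 4.04 in the controls. Far downstream, chr12:56804488-56804794 had no mutant peak and control folds of 2.95 and 2.96. The last regions were found in control 1 alone, at chr12:56688966-56689176 with a fold of 2.95 and at chr12:56808832-56809211 with 4.51.

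Over the 4 genes, 31 regions were open in both controls, and 11 of these (35.5%) held a peak in no mutant, against 30.4% of all regions open in both controls. The 11 were 2 of 4 at Alx1, 5 of 10 at Alx4, 2 of 6 at Pax1 and 2 of 11 at Pax9. Regions of the same class (within 1 kb of a gene end or not) and of the same control strength would give 1.06, 4.79, 2.42 and 4.10 at these genes, 12.4 in all, so the total was near the background. Without control 2 the count was 25 of the 54 regions open in control 1 (46.3%), against 47.8% of all regions. With all lists at 27194 peaks it was 1 of 11 (9.09%), against 13.4%. Open in all 5 libraries were 9 of the 31 (29.0%), against 43.4% of all such regions and 8.73 expected at like class and strength. No region near the 4 genes was open in all mutants and neither control, a pattern that 0.0484% of all regions showed. With all lists at 27194 peaks there was 1, the Pax9 region 1.57 kb upstream, which in the full lists had control folds of 4.33 and 2.83. At that shorter length 677 of all regions showed the pattern, against 42 with the full lists. These counts are descriptions with no test.

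**Figure D4:**
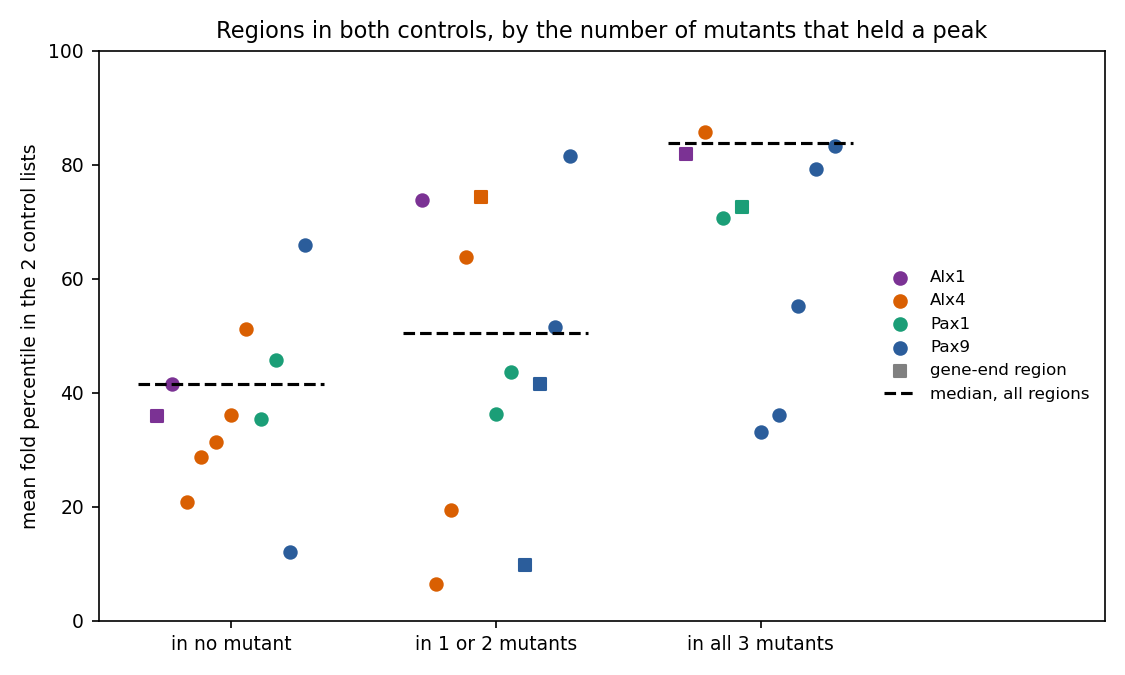
Mean percentile of the fold within the 2 control lists (y axis) for the 31 regions open in both controls, grouped by how many mutants held a peak; colours mark the genes, squares regions within 1 kb of a gene end, and dashed lines the median over all regions of that kind. Regions open in all mutants lie between percentiles 33.1 and 85.7, and those open in no mutant between 12.0 and 65.9.

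Regions with no mutant peak were weaker in the controls than regions open throughout, at these genes as elsewhere. The median control percentile was 36.0 for the 11 regions open in no mutant, 43.7 for the 11 open in 1 or 2 mutants and 72.5 for the 9 open in all. Over all regions the medians were 41.5, 50.5 and 83.8. Widths went the same way, with medians of 612, 762 and 1006 bp at the 4 genes and 544, 711 and 1352 bp over all regions. Weak regions were also found open throughout at Pax9, 1.57 kb upstream and at chr12:56699734-56700494, at control percentiles of 33.1 and 36.2. Among distal regions of like strength, 4.55% were open throughout for each of that pair, and 60.8% in no mutant. The region 8.03 kb upstream, at 65.9, was open in no mutant, as were 31.4% of distal regions of like strength, while 33.1% were open throughout.

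The regions were also divided by position relative to the gene. Of the 9 regions open in both controls that touched the body of 1 of the 4 genes, none lacked a peak in every mutant and 4 were open in all, against 3.00 and 3.63 expected at like class and strength. Over all regions open in both controls that touched a gene body, 23.8% were open in no mutant and 52.6% in all. Beyond the high-coordinate ends, 6 of 9 were open in no mutant and 1 in all, against 3.63 and 2.35 expected. Beyond the low-coordinate ends, 5 of 13 were open in no mutant and 4 in all, against 5.73 and 2.75. Median control percentiles were 43.7, 45.7 and 41.5 for the regions in the body, beyond the high end and beyond the low end. This division was made after the values were seen, rests on few regions and was not tested.

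Shares at each gene can be set beside those of other gene windows. Among 15542 genes with at least 4 regions open in both controls, the median share open in no mutant was 15.4%. It was 50.0% at Alx1 and Alx4, a share exceeded by 5.30% of genes, 33.3% at Pax1, exceeded by 17.7%, and 18.2% at Pax9, exceeded by 42.7%. These shares rest on 4, 10, 6 and 11 regions at Alx1, Alx4, Pax1 and Pax9, and the difference between the genes was not tested. The 5 regions at Alx4 lay near the 4.79 of like class and strength, and with all lists at 27194 peaks no region at Alx1, Alx4 or Pax1 was open in both controls and no mutant. Windows of neighbouring genes share regions, and gene-end regions, which were open in no mutant in 4.65% of cases against 42% of distal ones, make up only 13 of the 61 regions here. At the edge of the windows, the last Alx4 region inside, 98.2 kb from the gene, had a fold of 3.64 in control 1 alone, and the first outside, at 104 kb, of 3.12 in control 1 alone. For Pax9 the last inside, at 96.0 kb, had 4.51 in control 1 alone, and the first outside, at 103 kb, no mutant peak and 3.47 and 3.37 in the controls. For Pax1 the first outside, at 105 kb, had 4.51 in control 1 alone. For Alx1 the first outside, at 129 kb, had 4.78 and 4.71 in mutants 1 and 3 against 6.76 and 4.85 in the controls.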

How the data were processed

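ATAC-seq peak lists of 5 libraries, 1 per embryo, were analysed, and the labelled genotype set the groups. Replicates were numbered by sample order, which pairs no embryos. Per the submitters' processing notes, bcl2fastq 2.20.0, Bowtie2 2.3.5, mm10 and MACS2 were used. Not given in the sources used here are the options of MACS2, the treatment of duplicates and the shift for the transposase. A missing shift would move borders by a few bases, and kept duplicates would raise pileups. The authors deposited 1 list per library, not pooled: positions and summits in bp (other values), a display score, a fold ratio over background, and the −log10 of a p-value and of a q-value for each summit. The deposited score was not used.

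Peaks on chromosomes 1 to 19 and X that shared 1 bp were merged, and positions are 1-based. Fold values were (pileup + 1) / (background + 1) in even steps (100% of values less than 0.02 steps off). The Poisson p of that pileup matched the deposited −log10 p-value within 1e-05 for values under 100. Read depth is not known and no counting interval is given. Genes came from the RefSeq table of GRCm38.p6, which gives no strand or exons. Regions up to 1 kb from a gene's low or high end are called gene-end, the rest distal. Strength was the mean fold percentile in the control lists, in 10 deciles. Expected counts are sums of the share of all regions of the same class and decile.

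The test for region numbers was an exact permutation of library labels, two-sided, on the difference between group means; its smallest p is 0.2 with 3 against 2 libraries. All regions of the named genes are given. Genes of like pattern were the 3 nearest by Euclidean distance of their 5 shares of regions with a peak, among genes with at least 8 regions. Scripts (Python 3.11.15, pandas 2.3.3, SciPy 1.17.1) were tested on simulated data. Members and lists were chosen with earlier results of these data known. A few genes of the lists are not reported here. Alternatives were windows of 50 and 200 kb, −log10 q of at least 5 and 10, lists of equal length, a stricter merge, assignment by summit, leaving out each library and, added after seeing the data, regions nearest to the named gene only.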

Additional observations from a re-analysis of the deposited data

How the results depend on the processing

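The number of regions with a peak stayed lower in mutants than in controls at Alx1 and Alx4 under all 13 alternatives, and at Pax1 and Pax9 under 12. With every list at 27194 peaks the mutant minus control difference was -0.333 at Alx1 (exact two-sided permutation p = 1), -1.17 at Alx4 (exact p = 0.6), and 0.333 at Pax1 and 0.333 at Pax9 (exact p = 1 for both). At Pax1 the groups also overlapped with windows of 50 kb, where it was -0.833, and with −log10 q of 10 or more, where it was -0.667 (exact p = 0.6 for both). The Pax9 groups, which overlapped at the main settings, did not overlap with windows of 200 kb, where the difference was -10.2. Nor did they with −log10 q of 10 or more, where it was -2.17 (exact two-sided permutation p = 0.2 for both). No alternative can reach 0.05, since the smallest p is 0.2 with 3 against 2 libraries, 0.333 with 2 against 2 and 0.5 with 3 against 1. Leaving out 1 library gave -4.33 to -2.33 regions at Alx1, -19 to -8 at Alx4, -4 to -2.5 at Pax1 and -7 to -2.33 at Pax9. The 11 regions open in both controls and no mutant became 6 with windows of 50 kb, 21 with 200 kb, 7 with −log10 q limited to 5 or more and 4 with 10 or more, 1 at equal list length and 12 to 25 without 1 library. The 9 regions open in every library became 20 with windows of 200 kb, 2 with −log10 q of 10 or more and 9 to 12 without 1 library. The count of regions open in all mutants and neither control, 0, became 1 at equal list length, and over all regions 42 became 677. Windows change the number of regions and stricter thresholds shorten the lists by construction. No paired analysis was possible because the labels give no replicate numbers that the groups share. What the lists can show is limited by their weakest peaks: the weakest called peak held 15, 14 and 14 fragments in the mutants and 13 and 16 in the controls, so a region without a peak may be closed or open below that level.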

Other observations

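Other PAX genes held regions of each kind, and their difference from the 4 genes above was not tested. Of the regions open in both controls, Pax2, a gene of the kidney and eye, had 4 of 14 open in no mutant and 2 in all 5 libraries. Pax6 had 3 of 11 and 4 of 11, and Pax7 3 of 11 and 1 of 11. Pax3, which marks muscle precursors, had 2 of 5 and 1 of 5. Among other anterior limb genes, Gli3, which encodes the main GLI repressor of the limb, had 8 of 21 open in no mutant and 4 in all. Epha3, an ephrin receptor, had 7 of 17 open in no mutant, and Asb4 had 5 of 12. Over 10 posterior and Hedgehog-responsive genes, including Hand2, Shh and the 5′ Hoxd genes, 18 of 108 (16.7%) were open in no mutant. In all 5 libraries 41 of 108 were open. Hoxd11, Hoxd12 and Hoxd13 lie in 1 cluster, and their shared regions entered these totals once. They made up 31 of the 108, with 1 of 31 open in no mutant and 11 of 31 in all. Among sclerotome and girdle genes, Meox1 had 5 of 17 open in no mutant, Uncx 4 of 13 and Tbx15 1 of 11. All of these are descriptions beside a share of 30.4% over all regions.

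Among 14011 genes, the 5 shares of regions with a peak lay nearest to those of Alx1 at Sec16b (Euclidean distance 0.0838), Esr1 (0.105) and Galc (0.118). For Alx4 they lay nearest at D430042O09Rik (0.0640), Dmap1 (0.0667) and Tmem174 (0.0711), for Pax1 at Zfp286 (0.0793), Arf6 (0.0833) and Fbxo43 (0.0833), and for Pax9 at Retreg3 (0.107), Ctdsp1 (0.114) and Tubg1 (0.121).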
